A study of Homo sapiens with 8 samples.

Results

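CD38 and BST1 lie next to each other on human chromosome 4, in the same orientation, and encode the ADP-ribosyl cyclases of the cell surface. The locus was taken as these 2 genes of the 20098 protein-coding genes of the annotation, with 20 kb on either side, which is chr4:15684688-15874855 of hg19 (190168 bp). It held 75 of the 174751 H3K4me3 and H3K27ac peaks of the 8 libraries. BST1 (ENSG00000109743.11_7) spans 15704688-15739936 and CD38 (ENSG00000004468.13_8) spans 15779898-15854855, both on the plus strand. The first intron of CD38 runs from 15780271 to 15818133 and makes up 37863 bp of the 74958 bp of the gene.

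The libraries are chromatin immunoprecipitations from HL-60, a human promyelocytic leukemia cell line. Cells were treated with all-trans retinoic acid (ATRA) at 1 µM for 4 days, and control cells received the solvent ethanol for the same time, with medium and agent renewed midway in both. Each mark was profiled in 2 ATRA and 2 control libraries. The labels number the replicates but do not say how they were grown, and all of them come from 1 cell line, so the spread between them may be technical.

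CD38 is a surface enzyme that consumes NAD and forms ADP-ribose and the calcium-mobilizing messenger cyclic ADP-ribose, and it also serves as a receptor. BST1, also called CD157, is its paralog, is held in the membrane by a lipid anchor and is found on myeloid and stromal cells. CD38 is a classic early surface marker of HL-60 cells given retinoic acid, and its first intron is known to hold a retinoic acid response element. Retinoic acid receptors bind such elements together with retinoid X receptors, on paired copies of a short motif. H3K4me3 marks active promoters, and H3K27ac marks active promoters and enhancers.

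The sequences below are those on which the peaks at the locus turn. The first one is the stretch just before CD38 (15779701-15779897 of hg19, 197 bp, plus strand), which carried both marks in the ATRA libraries and neither mark in the control libraries. It was taken from the RefSeq promoter table of GRCh38.p14, which matched 1 of the 2 members, and it is identical in hg19. Its 3 CpG dinucleotides are in capitals.
Stretch before CD38: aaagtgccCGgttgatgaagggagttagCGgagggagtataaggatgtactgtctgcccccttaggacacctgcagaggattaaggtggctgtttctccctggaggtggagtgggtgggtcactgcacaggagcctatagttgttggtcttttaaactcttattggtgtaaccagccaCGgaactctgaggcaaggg

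The second one is the first 300 bases (chr4:15780679-15780978 of hg19, plus strand) of the 1022 bp of intron 1 that lay under H3K4me3 in all 4 libraries. Capitals mark the only match in intron 1 to a retinoid response element of the DR5 type, a direct repeat with 5 bases between its copies. The motif was searched on both strands with at most 1 mismatch, and this match, on the minus strand at 15780707-15780723, has 1 mismatch. It starts 809 bp after the 5′ end of CD38. H3K4me3 peaks of all 4 libraries lay over it, and H3K27ac peaks lay over it in both ATRA libraries and in no control library. A match of this kind occurred in 5.40% of 20097 windows of the same length and offset at other protein-coding genes. The locus also held matches with 1 mismatch outside intron 1. One at -414 bp from the 5′ end of CD38 lay under both marks in both ATRA libraries and under no control peak. Another, at 15756088-15756104 between the genes, lay under H3K27ac in all 4 libraries. In the BST1 body, matches at 15707219-15707235, 15727548-15727564 and 15738318-15738334 lay under no peak of either mark. A match there at 15739751-15739767 lay under both marks in 1 ATRA library each and under no control peak.
Start of the shared H3K4me3 stretch in CD38 intron 1: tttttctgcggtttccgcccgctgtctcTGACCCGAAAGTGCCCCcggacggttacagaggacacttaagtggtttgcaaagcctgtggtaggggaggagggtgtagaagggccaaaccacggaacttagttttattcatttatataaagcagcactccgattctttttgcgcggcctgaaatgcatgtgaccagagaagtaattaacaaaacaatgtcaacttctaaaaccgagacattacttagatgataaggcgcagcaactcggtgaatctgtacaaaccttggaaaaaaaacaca

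The last 2 sequences come from a stretch between the genes with H3K4me3 in both ATRA libraries and in 1 control library (chr4:15757999-15758298) and from a stretch of intron 1 with H3K27ac in both ATRA libraries and no control library (chr4:15785520-15785819), both on the plus strand of hg19. In the former, capitals mark TGTGGT, the core bound by RUNX factors, on either strand. In the latter, they mark TTGCNNAA, a C/EBP-type motif, on the minus strand, and GAGGAA, a PU.1-type motif, on the plus strand. These motifs and AGATAA, read by GATA factors, were searched on both strands of the 4 printed stretches. TGTGGT also occurred 1 time in the second one, and AGATAA occurred in none. Among 20094 gene starts of 300 bases, 12.5% held TGTGGT, 9.14% held TTGCNNAA, 27.3% held GAGGAA, 8.76% held AGATAA and 1.45% held the DR5 motif. The last 2 stretches lie away from gene starts, so these shares are not a like background for them. A match is a description and not a binding site.
Between BST1 and CD38: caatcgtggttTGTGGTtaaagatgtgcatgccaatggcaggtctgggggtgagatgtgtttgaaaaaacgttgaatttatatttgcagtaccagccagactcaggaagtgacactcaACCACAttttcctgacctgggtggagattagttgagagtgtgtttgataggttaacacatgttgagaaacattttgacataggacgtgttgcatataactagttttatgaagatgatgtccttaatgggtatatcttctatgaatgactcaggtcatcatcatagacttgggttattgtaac
H3K27ac stretch of CD38 intron 1: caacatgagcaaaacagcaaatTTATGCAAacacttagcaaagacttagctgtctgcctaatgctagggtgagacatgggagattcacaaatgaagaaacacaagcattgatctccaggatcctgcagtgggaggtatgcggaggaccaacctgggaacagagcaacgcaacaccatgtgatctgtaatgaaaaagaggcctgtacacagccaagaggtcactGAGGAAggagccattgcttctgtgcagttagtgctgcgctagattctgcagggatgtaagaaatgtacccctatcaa

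Across the locus, the ATRA libraries had longer stretches under peaks than the control libraries for both marks. H3K4me3 peaks covered 14557 bp and 46634 bp in the ATRA libraries (replicates 1 and 2) and 5909 bp and 1858 bp in the control libraries. H3K27ac peaks covered 32753 bp and 66071 bp in the ATRA libraries and 6413 bp and 21501 bp in the control libraries. Both ATRA libraries were above both control libraries for either mark, and ATRA replicate 2 was the highest. The ratio of the ATRA mean to the control mean was 7.88 for H3K4me3 in the locus against 1.17 over the genome, and 3.54 for H3K27ac against 1.82 over the genome. Within replicate numbers, the H3K4me3 ratio in the locus was 2.46 and 25.1, and the H3K27ac ratio was 5.11 and 3.07. Since 2 values against 2 allow no exact permutation p (two-sided) under 0.33, no test was made and each library is given. In cell populations, more cells with a mark and more of the mark per cell cannot be told apart.

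The number of H3K4me3 peaks was 7 and 18 in the ATRA libraries and 5 and 2 in the control libraries, and that of H3K27ac peaks was 9 and 18 against 2 and 14. Of the 25 ATRA H3K4me3 peaks, 16 overlapped no control peak, whereas each of the 7 control peaks overlapped an ATRA peak. Of these 16 peaks, 3 overlapped a peak of the other ATRA replicate, and ATRA replicate 2 held 18 of the 25 peaks. Over the genome, 15.9% of ATRA and 7.89% of control H3K4me3 peaks overlapped no peak of the other condition. Of the 27 ATRA H3K27ac peaks, 17 overlapped no control peak, and of the 16 control peaks, 3 overlapped no ATRA peak, where the shares over the genome were 48.3% and 22.9%. Of these 17 peaks, 6 overlapped a peak of the other ATRA replicate. No base of the locus lay under peaks of both control libraries and of no ATRA library. Both ATRA libraries and no control library covered 8991 bp with H3K4me3 and 17741 bp with H3K27ac. All 4 libraries covered 1858 bp with H3K4me3 and 6369 bp with H3K27ac.

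**Figure D1:**
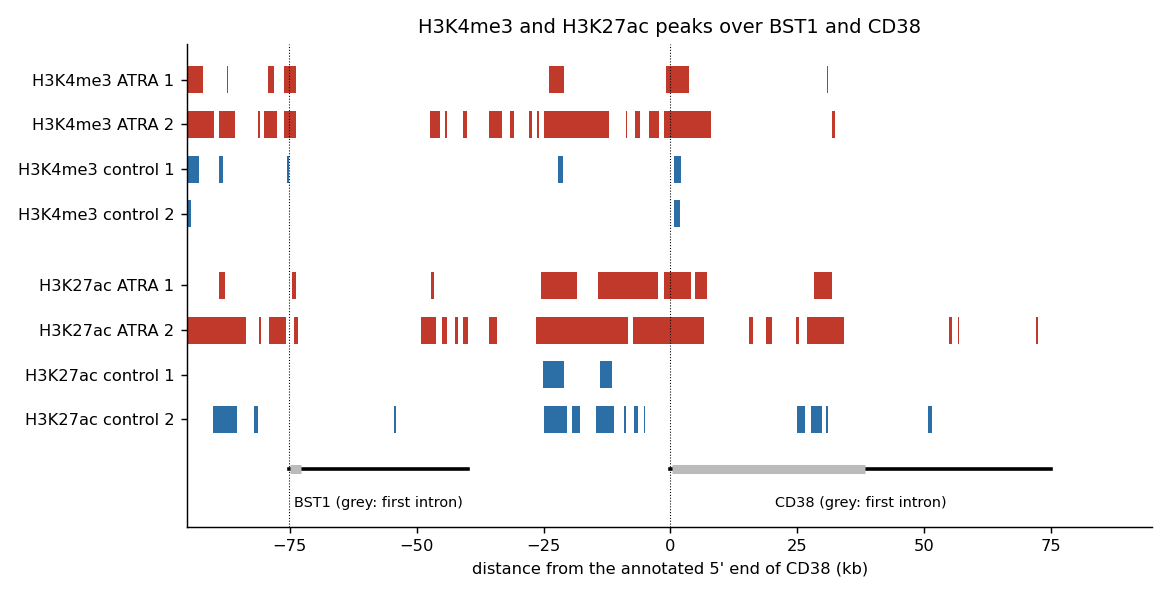
H3K4me3 and H3K27ac peaks of each library over BST1 and CD38, as distance in kb from the annotated 5′ end of CD38. Red bars are peaks of ATRA libraries and blue bars are peaks of control libraries, dotted lines mark the 5′ ends of both genes, and grey marks their first introns. The control libraries have H3K4me3 at CD38 only downstream of the 5′ end, and H3K27ac between the genes in all 4 libraries.

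At the promoter of CD38 (within 2 kb of its 5′ end, 15777898-15781898), H3K4me3 extended over the 5′ end only in the ATRA libraries, and H3K27ac was called only in the ATRA libraries. The H3K4me3 peak of ATRA replicate 1 spanned 15779002-15783548 (4547 bp) and that of ATRA replicate 2 spanned 15778646-15787835 (9190 bp). The peaks of the control libraries spanned 15780512-15781920 (1409 bp) and 15780679-15781700 (1022 bp). Both control peaks thus began inside intron 1, 614 bp and 781 bp after the 5′ end, and left the 5′ end and the first exon uncovered. The ATRA peaks began upstream of it, at -896 bp and -1252 bp.

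Within the promoter, H3K4me3 covered 2897 bp and 3253 bp in the ATRA libraries and 1387 bp and 1022 bp in the control libraries. The groups did not overlap, with means of 3075.0 ± 251.7 bp and 1204.5 ± 258.1 bp (SD, n = 2 each) and a difference of 1870.5 bp. This separation in favor of ATRA was found at 11.3% of all 20098 promoters, or 20.6% of those with an H3K4me3 peak in any library, and the reverse at 2.42%. A larger mean difference was found at 60 of them (0.299%). A 5′ end under H3K4me3 in both ATRA libraries and in no control library was found at 60 genes (0.299%). At 31 of those (0.154%), as at CD38, both control libraries had a peak elsewhere within 2 kb.

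**Figure D2:**
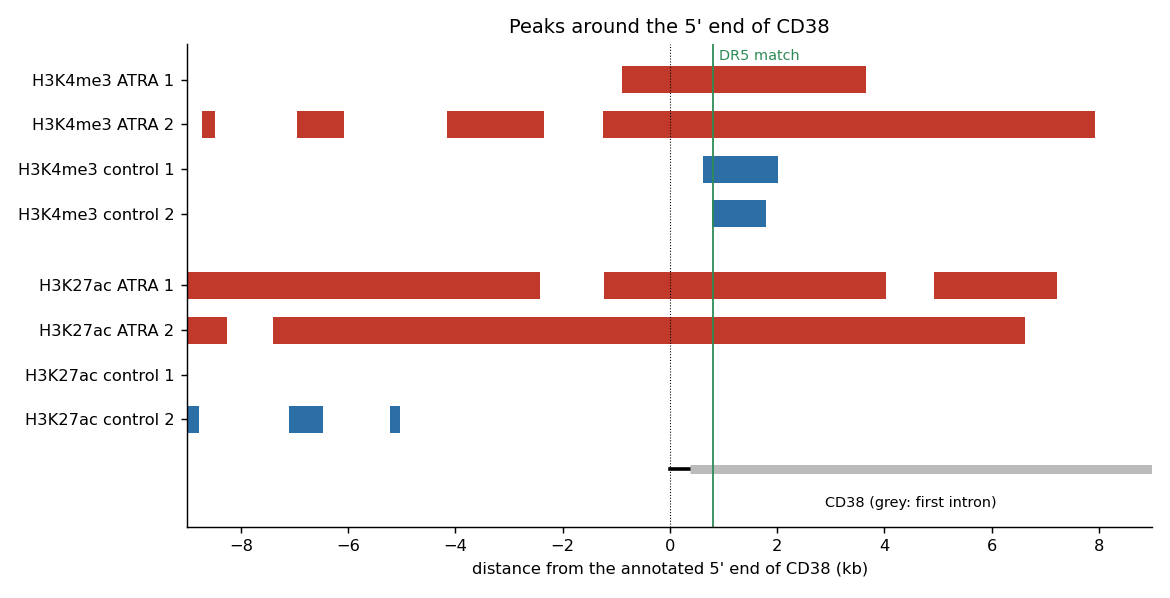
Peaks around the 5′ end of CD38 in each library, as distance in kb from the annotated 5′ end. Red bars are ATRA peaks, blue bars are control peaks, the dotted line is the 5′ end and the green line is the intron 1 DR5 match at 809 bp. A further DR5 match at -414 bp is not drawn. Both control H3K4me3 peaks lie downstream of the 5′ end, and no control H3K27ac peak lies within 2 kb.

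H3K27ac covered 3231 bp and 4001 bp of the CD38 promoter in the ATRA libraries and 0 bp in both control libraries. The peaks were 15778668-15783922 (5255 bp) in ATRA replicate 1 and 15772493-15786520 (14028 bp) in ATRA replicate 2, and both covered the 5′ end. The separation in favor of ATRA was found for H3K27ac at 18.0% of promoters, or 33.6% of those with an H3K27ac peak in any library. A mean difference above the 3616 bp of CD38 was found at 33 promoters (0.164%). A 5′ end under H3K27ac in both ATRA libraries and in no control library was found at 606 genes (3.02%), CD38 among them. Both H3K27ac peaks had a deposited −log10 q below 5, so at that threshold the difference was 0.0 bp. With only peaks that share at least 50% of both lengths with the other replicate, the ATRA peaks at CD38 were dropped and the H3K4me3 difference turned to -1204.5 bp. The ATRA peaks of replicate 1 lay wholly within those of replicate 2 but made up 49.5% of the replicate 2 peak for H3K4me3 and 37.5% for H3K27ac.

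The stretch of intron 1 with H3K4me3 in all 4 libraries had 42.5% GC and 27 CpG dinucleotides, at 0.587 of the number its base composition would give. Of the windows of the same length and offset at other genes, 34.1% had at least as many, and their median was 19. The 2 kb before CD38 held 13 CpG dinucleotides (0.144 of that number), and the first 2 kb of the gene held 93 (0.712). Of these 93, 66 lay in the 781 bp from the 5′ end to the shared stretch (67.1% GC, 0.752 of that number). The CpG-dense part next to the 5′ end thus lay mostly outside the control H3K4me3 peaks and inside the ATRA peaks.

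In CD38 intron 1 beyond the promoter (15781899-15818133, 36235 bp), both marks covered longer stretches in the ATRA libraries. H3K4me3 covered 2007 bp and 6496 bp in the ATRA libraries and 22 bp and 0 bp in the control libraries. H3K27ac covered 7769 bp and 14298 bp in the ATRA libraries and 0 bp and 3915 bp in the control libraries. The groups did not overlap for either mark, with mean differences of 4240.5 bp for H3K4me3 and 9076 bp for H3K27ac. Among 5105 first introns of at least 10 kb, this held for 25.2% with H3K4me3 and for 16.1% with H3K27ac, and the reverse for 3.62% and 1.90%. A larger mean difference was found in 34 first introns (0.666%) for H3K4me3 and in 107 (2.10%) for H3K27ac. These ranks were not adjusted for intron length, and shorter introns have less room for a large difference.

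For H3K4me3, most of this came from the peaks that start at the CD38 promoter. Beyond them, H3K4me3 was found in ATRA replicate 1 at 15810667-15811023 (357 bp) and in ATRA replicate 2 at 15811752-15812310 (559 bp), and these peaks did not overlap. H3K27ac had a further ATRA stretch at 15784819-15787116 in replicate 1, which overlapped the long promoter peak of replicate 2. Some 28 kb into the gene, H3K27ac peaks lay at 15808210-15811656 in ATRA replicate 1 and at 15806866-15814032 in ATRA replicate 2. Control replicate 2 had H3K27ac at 15807613-15809710 and 15810610-15811015 within that stretch and at 15804922-15806332 just before it, and control replicate 1 had none. This intronic stretch was therefore marked in 3 of the 4 libraries, unlike the promoter. The peaks within it had a low −log10 q, 0.83 in both ATRA libraries and 0.74 and 0.72 in control replicate 2. ATRA replicate 2 alone had shorter peaks at 15795412-15796115, 15798691-15799904 and 15804700-15805290. Without ATRA replicate 2, the intron 1 difference was 1996.0 bp for H3K4me3 and 5811.5 bp for H3K27ac, and without ATRA replicate 1 it was 6485.0 bp for H3K4me3. At −log10 q of at least 5, the H3K27ac difference in intron 1 was 0.0 bp, and with the 50% overlap of replicates the differences were -11.0 bp for H3K4me3 and 0.0 bp for H3K27ac.

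The rest of CD38, which holds its other exons (15818134-15854855), had no H3K4me3 peak in any library. H3K27ac covered 1231 bp in ATRA replicate 2, in peaks at 15834839-15835412, 15836612-15836811 and 15851948-15852404. It covered 847 bp in control replicate 2, in a peak at 15830582-15831428, and the groups overlapped. Past CD38 no peak of either mark was called over 20 kb.

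BST1 also had longer H3K4me3 at its 5′ end in the ATRA libraries. The ATRA peaks spanned 15703762-15706076 (2315 bp) and 15703789-15706041 (2253 bp). Control replicate 1 had a peak of 505 bp at 15704267-15704771, and control replicate 2 had none. In contrast to CD38, the control peak covered the 5′ end, reaching from -421 bp to 83 bp, and the ATRA peaks reached in both directions from it. The means over the promoter were 2284.0 ± 43.8 bp and 252.5 ± 357.1 bp (SD, n = 2 each), a difference of 2031.5 bp that was exceeded at 41 promoters (0.204%).

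**Figure D3:**
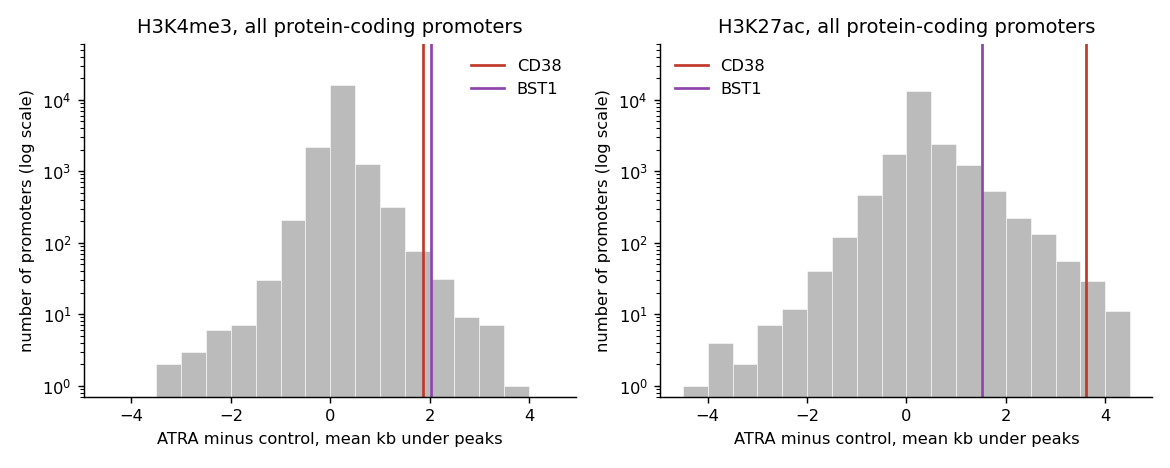
Number of protein-coding promoters, on a log scale, by the difference between the ATRA mean and the control mean of the covered length, in kb. Vertical lines mark CD38 and BST1. For H3K4me3 both genes lie near 2 kb, and for H3K27ac CD38 lies at 3616 bp and BST1 at 1530 bp.

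H3K27ac at the BST1 promoter did not cover the 5′ end in any library. ATRA replicate 1 had a peak at 15705327-15706078 (752 bp). ATRA replicate 2 had peaks at 15700784-15704093 (3310 bp) and 15705688-15706589 (902 bp), one on each side of the 5′ end. The control libraries had no H3K27ac peak at the BST1 promoter. The base pairs common to both ATRA libraries were 391 bp at 15705688-15706078, within intron 1 of BST1 (15704956-15707137). The covered length of 752 bp and 2308 bp against 0 bp and 0 bp gave a difference of 1530 bp, which 930 promoters (4.63%) exceeded.

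Over BST1 with its promoter (37249 bp), H3K4me3 covered 2315 bp and 5295 bp in the ATRA libraries and 505 bp and 0 bp in the control libraries. H3K27ac covered 1240 bp and 7586 bp against 0 bp and 457 bp. The groups did not overlap, as for 24.0% of all genes with H3K4me3 and 25.4% with H3K27ac, and the reverse was found for 603 genes with H3K4me3 and for 2.73% of genes with H3K27ac. Larger mean differences than the 3552.5 bp and 4184.5 bp of BST1 were found at 307 genes (1.53%) and 1647 genes (8.19%). The corresponding differences for CD38 with its promoter were 6111 bp, exceeded at 95 genes (0.473%), and 12884 bp, exceeded at 341 genes (1.70%). Genes differ in length, and a gene shorter than a difference cannot exceed it.

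In the body of BST1, peaks lay toward its 3′ end and mainly in 1 library. ATRA replicate 2 had H3K4me3 at 15732612-15734448, 15735449-15735948 and 15739067-15739771, and the other libraries had none. H3K27ac of ATRA replicate 2 lay at 15730842-15733691, 15734822-15735931, 15737511-15737997 and 15739106-15740079, and that of ATRA replicate 1 at 15732753-15733240. Control replicate 2 had H3K27ac at 15725342-15725798 and control replicate 1 had none. Only 488 bp of the body thus had H3K27ac in both ATRA libraries. Without ATRA replicate 2, the BST1 difference was 2062.5 bp for H3K4me3 and 1011.5 bp for H3K27ac, and without ATRA replicate 1 it was 7357.5 bp for H3K27ac. At −log10 q of at least 5 the H3K27ac difference was 620.0 bp, and with only peaks of at least 1 kb it was 2683.0 bp and the groups overlapped. With the 50% overlap of replicates it was 0.0 bp.

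The 37961 bp from the 3′ end of BST1 to the CD38 promoter (15739937-15777897) held the only H3K27ac of the locus that was called in all 4 libraries. These stretches were 15754901-15758962 (4062 bp) and 15766051-15768357 (2307 bp), about 25 kb and 14 kb before CD38. H3K27ac covered 19111 bp and 25095 bp in the ATRA libraries and 6413 bp and 10799 bp in the control libraries, a separation in favor of ATRA that 15.1% of 9437 gaps between genes shared, against 2.07% in the reverse direction. The mean difference of 13497 bp was exceeded in 196 gaps (2.08%). Gaps shorter than that difference could not exceed it.

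In ATRA replicate 1 the H3K27ac peaks were 15754352-15761519 and 15765527-15777469, and in ATRA replicate 2 they were 15744228-15745636, 15753496-15771633 and the long promoter peak. The control peaks were 15754857-15758962 and 15766051-15768357 in replicate 1. Control replicate 2 had peaks at 15754901-15759506, 15760558-15762104, 15765289-15768737, 15770766-15771119, 15772794-15773436 and 15774674-15774873. Every base under a control peak between the genes thus also lay under an ATRA peak, and the ATRA peaks reached beyond them toward CD38.

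H3K4me3 between the genes differed most between the ATRA replicates. ATRA replicate 1 had 1 peak, 15756052-15758899 (2848 bp), whereas ATRA replicate 2 had 8 peaks of 20249 bp in all, the longest of them at 15754905-15767710 (12806 bp). The other peaks of ATRA replicate 2 were 15744079-15746763, 15748310-15749074, 15752044-15752670, 15753551-15753978, 15771182-15771426, 15772938-15773821 and 15775740-15777548. Control replicate 1 had a peak at 15757650-15758647 (998 bp), and control replicate 2 had none. The groups did not overlap, as in 10.6% of gaps (1.74% in the reverse direction), and no gap had a mean difference above the 11049.5 bp found here. That rank rested on ATRA replicate 2: the replicate 1 difference was 1850 bp, and 98 gaps had a larger one. Gaps shorter than 11049.5 bp could not exceed the mean difference. Of the H3K4me3 of ATRA replicate 2 between the genes, 86.8% lay under H3K27ac of ATRA replicate 2, 57.6% under that of ATRA replicate 1, 28.2% under that of control replicate 1 and 44.8% under that of control replicate 2.

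Before BST1 (15684688-15702687), the locus took in the edge of the peaks over the paired promoters of FBXL5 and FAM200B. H3K4me3 covered 4490 bp and 11341 bp in the ATRA libraries and 2997 bp and 836 bp in the control libraries. The peaks over the edge were 15678242-15687760 and 15677657-15689924 in the ATRA libraries and 15680007-15686922 and 15681069-15685523 in the control libraries, so that the first 836 bp lay under H3K4me3 in all 4. Closer to BST1, H3K4me3 of both ATRA libraries and of no control library lay at 15700555-15701709 (1155 bp) and 15692541-15692802 (262 bp), while control replicate 1 had a peak at 15691043-15691804. In ATRA replicate 2 these stretches belonged to longer peaks, 15699886-15702456 and 15690956-15694078, and a further peak lay at 15698666-15699075. H3K27ac covered 1402 bp and 13860 bp against 0 bp and 5483 bp, and the groups overlapped. The H3K27ac peaks over the edge were 15682601-15684879 and 15679106-15696194 in the ATRA libraries and 15681467-15684746 in control replicate 2. Beside them, H3K27ac lay at 15690992-15692201 in ATRA replicate 1, at 15698849-15699297 in ATRA replicate 2, and at 15689847-15694475 and 15697838-15698632 in control replicate 2.

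**Figure D4:**
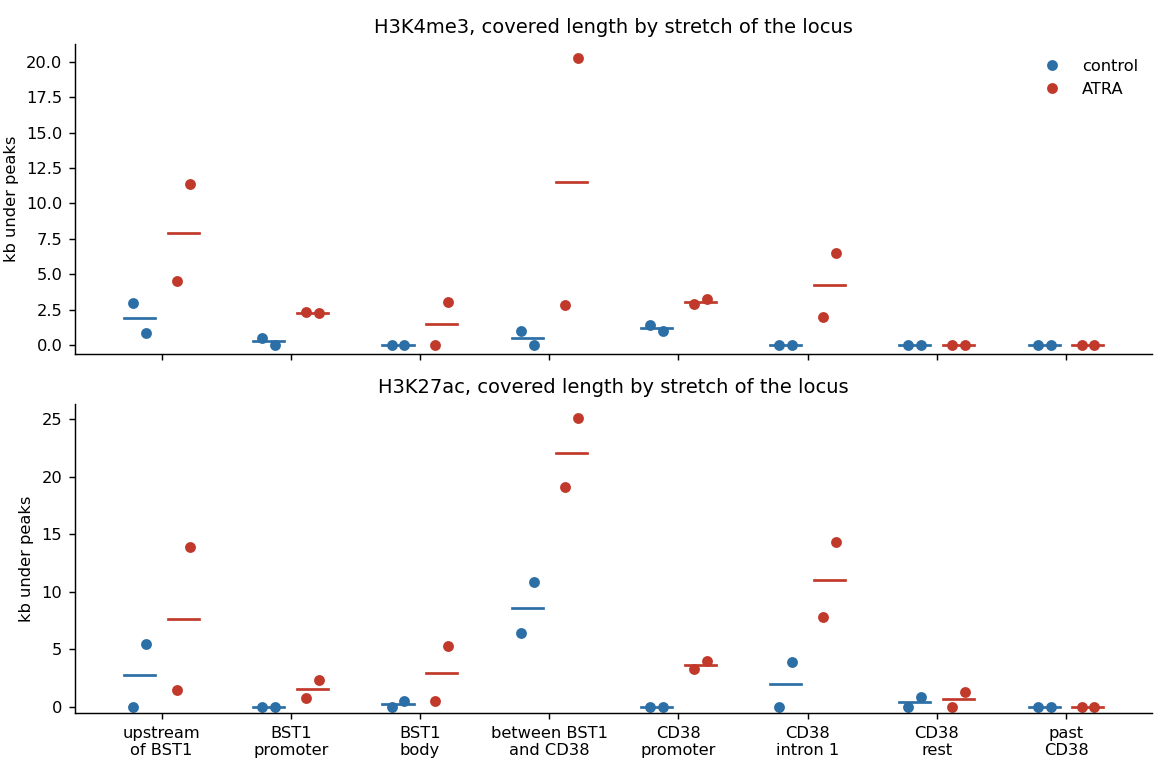
Covered length in kb under H3K4me3 peaks (upper panel) and H3K27ac peaks (lower panel) for each stretch of the locus. Each point is 1 library, blue for control and red for ATRA, and each line is the mean of 2 libraries. The CD38 promoter and the BST1 promoter have ATRA points close together and above the control points for H3K4me3, while the ATRA points lie far apart between the genes.

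Stretches marked in both replicates were compared between the marks. In the ATRA libraries, 14138 bp carried H3K4me3 in both replicates, 30937 bp carried H3K27ac in both, and 7941 bp carried both marks. These 7941 bp lay at the CD38 promoter (2897 bp), in CD38 intron 1 (1650 bp), between the genes (2848 bp), at the BST1 promoter (354 bp) and before BST1 (192 bp). In the control libraries, 1858 bp carried H3K4me3 and 6369 bp carried H3K27ac in both replicates, and 0 bp carried both. All H3K4me3 that both ATRA libraries shared at the CD38 promoter, in intron 1 and between the genes thus also carried H3K27ac, which at the BST1 promoter was so for 354 bp of 2253 bp.

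Peaks were also classed by an overlap of at least 1 bp, between replicates and then between conditions. Only peaks found in both replicates of the other condition counted in the second step. For H3K4me3, 6 ATRA peaks and 2 control peaks were found in both replicates. Of the ATRA peaks, 2 overlapped such a control peak and 4 were classed as specific to ATRA, and 0 control peaks were specific. Among the 4, those at 15703762-15706076 and 15756052-15758899 overlapped a peak of control replicate 1. Over the genome, 14.4% of such ATRA peaks and 3.01% of such control peaks were specific. For H3K27ac, 9 ATRA peaks and 2 control peaks were found in both replicates. Of the ATRA peaks, 3 overlapped a control peak found in both replicates and 6 were classed as specific, and 0 control peaks were specific. Among the 6, those at 15690992-15692201 and 15808210-15811656 overlapped peaks of control replicate 2. The genome-wide shares of specific peaks were 49.7% of ATRA peaks and 1814 of 12937 control peaks. With the peaks of replicate 2 kept in place of those of replicate 1, a setting added after the data were seen, 4 of 6 H3K27ac peaks were specific to ATRA, against 48.1% over the genome.

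Of the 10 protein-coding promoters within 500 kb of CD38, those of BST1 and CD38 had both ATRA libraries above both control libraries, for either mark, as had 11.3% of all promoters for H3K4me3 and 18.0% for H3K27ac. C1QTNF7, CC2D2A, FGFBP1, FGFBP2 and PROM1, the last encoding the stem cell surface protein prominin, had no peak in any of the 8 libraries. FBXL5, which encodes an iron-sensing ubiquitin ligase subunit, and FAM200B share a promoter region at -96.6 kb from CD38, where H3K4me3 filled the 4001 bp of the promoter in all 4 libraries, so that this measure could not separate the groups. The whole H3K4me3 peaks over their 5′ ends were 9519 bp and 12268 bp in the ATRA libraries and 6916 bp and 4455 bp in the control libraries, so they were also longer with ATRA. H3K27ac at that promoter covered 2279 bp and 4001 bp in the ATRA libraries and 1725 bp and 3280 bp in the control libraries, which overlapped as groups but was longer with ATRA within each replicate number. The whole H3K27ac peaks over these 5′ ends were 2279 bp and 17089 bp in the ATRA libraries and 1725 bp and 3280 bp in the control libraries. At TAPT1, 449.1 kb after CD38, the whole H3K4me3 peaks were 7739 bp and 7514 bp against 7434 bp and 6585 bp, and the H3K27ac peaks were 3573 bp and 6672 bp against 2948 bp and 6083 bp. FBXL5, FAM200B and TAPT1 thus had peaks of both marks over their 5′ ends in every library, unlike CD38 and BST1.

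**Figure D5:**
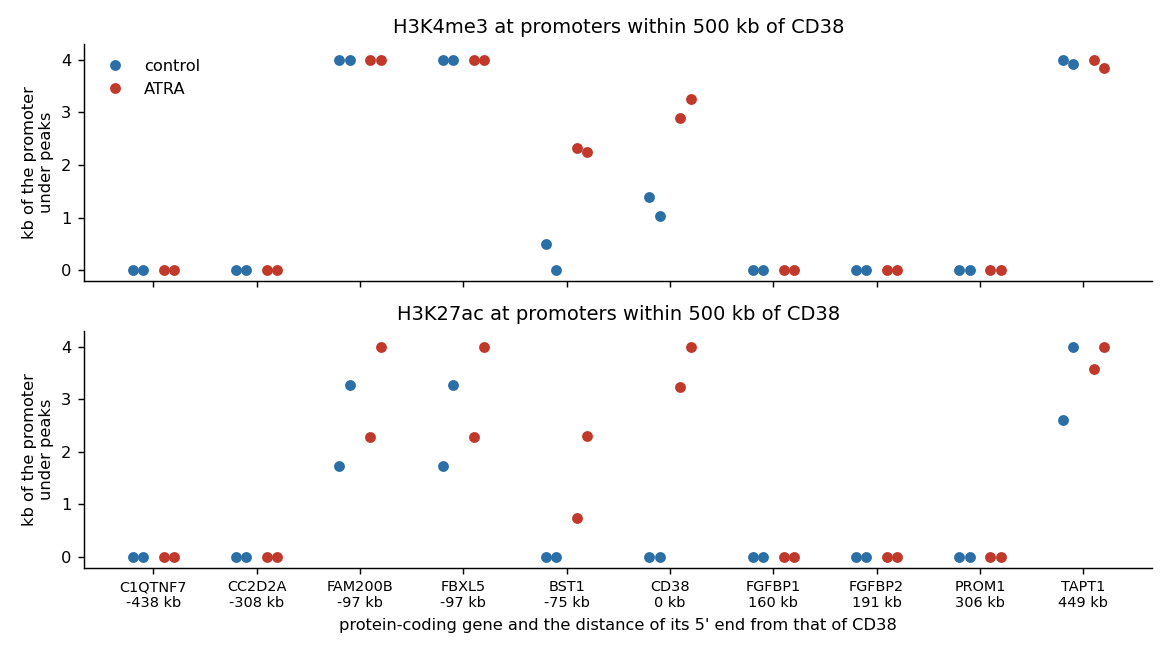
Covered length in kb of each protein-coding promoter within 500 kb of CD38, for H3K4me3 (upper panel) and H3K27ac (lower panel). Each point is 1 library, blue for control and red for ATRA, and genes are ordered by position with their distance from CD38. BST1 and CD38 have both ATRA points above both control points, and lengths cannot exceed the 4001 bp of the promoter, which H3K4me3 fills at FAM200B and FBXL5.

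Genes with the most similar profile were sought from 2 kb before to 20 kb after the 5′ end, by the Euclidean distance of the covered length over the 8 libraries. For CD38 they were CYP4F3, FMNL3, CCL2, UBE2F and UBE2F-SCLY, at distances of 4647 to 5398 bp. The values of CD38 itself were 4547 bp and 9190 bp against 1409 bp and 1022 bp for H3K4me3 and 7553 bp and 10535 bp against 0 bp and 0 bp for H3K27ac. CYP4F3, which encodes the leukotriene B4 hydroxylase of neutrophils, had 3978 bp and 5422 bp against 0 bp and 0 bp of H3K4me3 and 9486 bp and 9978 bp against 0 bp and 0 bp of H3K27ac. The chemokine gene CCL2 likewise had no H3K4me3 in the control libraries, whereas FMNL3 had 2789 bp and 1248 bp. For BST1 they were SLFN12, CD1D, TANK, GIMAP6 and PLTP, at distances of 462 to 1357 bp. SLFN12 had 2315 bp and 1962 bp against 211 bp and 0 bp of H3K4me3 and 548 bp and 2325 bp against 0 bp and 0 bp of H3K27ac.

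The enzymes that make and use NAD, the substrate of CD38, were read at their promoters. Of 16 genes, 2 had longer H3K4me3 in both ATRA libraries than in both control libraries, 0 had shorter, and 5 had no H3K4me3 peak in any library. That count is near the share over all promoters, 11.3%, or 20.6% of those with a peak. For H3K27ac 6 had longer and 1 had shorter, with a median difference of 387.25 bp against 0.0 bp over all promoters. Only 10742 of the 20098 promoters had an H3K27ac peak in any library, so these medians do not come from like sets. The 6 were NAMPT, the rate-limiting enzyme of NAD salvage, the nicotinamide riboside kinase gene NMRK1, the deacetylase genes SIRT2 and SIRT3, PARP1 and the NAD kinase gene NADK. NMRK1 had 2112 bp and 3375 bp in the ATRA libraries and 0 bp and 563 bp in the control libraries. NNMT, which methylates nicotinamide, went the other way, with 0 bp and 0 bp against 2249 bp and 1618 bp. H3K27ac was longer in ATRA at 18.0% of all promoters (33.6% of those with a peak, which 4 of the 16 lacked) and shorter at 2.29%.

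Of 13 genes for targets, partners and neighbours in the extracellular pathway of CD38, 12 were in the annotation and PECAM1 was not analysed here. H3K4me3 was longer in ATRA at 2 of the 12 (TRPM2 and VAV1) and shorter at 0. H3K27ac was longer at 5 (TPCN1, CBL, VAV1, LYN and FGR) and shorter at 0, with a median difference of 390.5 bp against 0.0 bp over all promoters. As above, many of all promoters had no H3K27ac peak, so these medians do not come from like sets. Of the 12, 6 had no H3K4me3 peak and 5 no H3K27ac peak in any library. Over all promoters, H3K4me3 was longer at 11.3% (20.6% of those with a peak) and H3K27ac at 18.0% (33.6% of those with a peak). For H3K27ac, FGR, a SRC family kinase of myeloid cells, had 4001 bp and 4001 bp with ATRA and 0 bp and 200 bp in control. Its promoter had 0 bp of H3K4me3 in all 4 libraries. LYN, a kinase of the same family, had 3007 bp and 3610 bp of H3K27ac against 0 bp and 1018 bp. The ryanodine receptor genes RYR1, RYR2 and RYR3, whose channels respond to cyclic ADP-ribose, and the ectoenzyme genes NT5E and ENPP1 had no peak in any library. TRPM2, the channel gated by ADP-ribose, had 790 bp and 758 bp of H3K4me3 against 482 bp and 103 bp.

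The cell type label was read from H3K4me3 at marker promoters. MPO and SPI1 had 4001 bp in all 4 libraries, and CD33 and PTPRC had peaks in all 4, while AZU1 had them in 2 and ELANE in none. The T cell markers CD3D and CD3E and the B cell marker PAX5 had no H3K4me3 peak, nor did ALB or EPCAM, and COL1A1 had 465 bp and 648 bp in 1 ATRA and 1 control library. The libraries held 13241 to 16487 H3K4me3 peaks over 47.7 to 63.2 Mb and 15457 to 39332 H3K27ac peaks over 28.8 to 86.1 Mb, with the lowest numbers in control libraries. All 25 ATRA and 7 control H3K4me3 peaks of the locus had a −log10 q of at least 5. So had 6 of 27 ATRA and 0 of 16 control H3K27ac peaks, the 6 all in ATRA replicate 1. Per library over the genome, 80.2% to 87.4% of H3K4me3 peaks and 12.8% to 16.9% of H3K27ac peaks reached that value.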

How the data were processed

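H3K4me3 and H3K27ac were measured by ChIP-seq in 8 libraries, 2 per mark and condition. Per the labels and the study's methods, the authors trimmed adapters, mapped the reads to hg19 (Bowtie) and had MACS2 call broad peaks library by library. Versions and the use of input DNA in the peak call are not given in the sources used here. The deposited files give peak positions in bp and a −log10 q, which was used only as a filter. Their fold and −log10 p columns hold values those measures cannot take and were not used. Whether the −log10 q column is sound was not tested, so results at that filter carry this limit. It did not follow peak length. In control replicate 1, H3K4me3 peaks of 505 bp and 6916 bp had values of 56.17 and 28.95. Read depth per peak is unknown, so no counting interval is given, and 2 libraries per group limit the precision.

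Covered length in bp under peaks was computed per library with Python 3.11.15 and numpy 2.4.6, and figures were drawn with matplotlib 3.10.9. Genes came from GENCODE 44 mapped to GRCh37. A promoter is within 2 kb of the 5′ end. Groups do not overlap where both ATRA libraries exceed both control libraries. The shares over all promoters, first introns and gaps of at least 10 kb, and genes are given as background. First introns, gaps and genes differ in length, and their ranks by difference in bp were not adjusted for it. The computation of covered lengths and overlaps was tested on simulated peaks of known length, which says nothing of chance separations in the data. Alternatives were a stricter −log10 q, minimal peak length, scaling to equal covered length, replicate overlap, other promoter widths and leaving out each library.

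Replicate numbers were taken to pair ATRA and control libraries of a mark, since the deposited peak names give the same numbers a shared tag. Over 20098 genes, the deviations of same-numbered libraries correlated with r = 0.243 for H3K4me3 and 0.649 for H3K27ac, across genes, which are not independent. These lengths were not scaled. Replicate 2 covered more H3K27ac genome-wide than replicate 1 with ATRA (86.1 and 64.8 Mb) and in control (54.0 and 28.8 Mb). Such a shared shift can give a positive r without pairing, so r cannot decide whether the libraries were paired. Named genes were CD38 and BST1, protein-coding genes within 500 kb, lists for NAD metabolism and CD38 partners, and the 5 genes nearest in profile to each member. Members and lists were chosen with earlier results of these data known. 1 marker gene of the cell type lists is not reported here.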

Additional observations from a re-analysis of the deposited data

How the results depend on the processing

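Over 72 alternatives of the 6 differences at the CD38 promoter, in CD38 intron 1 and over BST1, the ATRA mean was above the control mean in 65 and equal to it, at 0, in 5. Outside those that leave out a library, the libraries of the conditions did not overlap, with ATRA higher, in 39 of 48. In all 6 differences both ATRA libraries exceeded both control libraries at the main setting. The settings that leave out a library therefore could not change the sign. Nor could the replicate block, which is among the 48, so these outcomes say nothing of robustness. With only peaks that share 50% of both lengths with the other replicate, the H3K4me3 difference turned to -1204.5 bp at the CD38 promoter and to -11.0 bp in intron 1, and the H3K27ac difference was 0.0 bp at the CD38 promoter, in intron 1 and over BST1, since the ATRA peaks there were dropped. At a −log10 q of at least 5, H3K27ac differed by 0.0 bp at the CD38 promoter and in intron 1 and by 620.0 bp over BST1. Scaled to equal covered length, the CD38 promoter differed by 1558.1 bp for H3K4me3 and 2812.9 bp for H3K27ac. A 1 kb promoter gave 2001.0 bp for H3K27ac at CD38. A 5 kb promoter gave 5089.0 bp for H3K4me3 and 8954.0 bp for H3K27ac at CD38, 1926.5 bp for H3K4me3 in intron 1 and 5415.5 bp for H3K4me3 over BST1; these follow from the window length.

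Leaving out each library in turn gave ranges of 1688.0 to 2053.0 bp (H3K4me3) and 3231.0 to 4001.0 bp (H3K27ac) at the CD38 promoter, 1996.0 to 6485.0 bp and 5811.5 to 12340.5 bp in intron 1, and 2062.5 to 5042.5 bp and 1011.5 to 7357.5 bp over BST1. With the replicate number as a block, the mean differences were the same by construction, 1870.5 and 3616.0 bp, 4240.5 and 9076.0 bp, and 3552.5 and 4184.5 bp in the same order. Both within-pair differences were above 0 for each, which the separation of the libraries already fixed.

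The share of features with both ATRA libraries higher fell with scaling to 3.47% of promoters for H3K4me3 and 5.85% for H3K27ac, to 16.6% of first introns for H3K4me3, and to 8.86% and 10.9% of genes. At a −log10 q of at least 5 it was 1.08% of promoters, 1.57% of first introns and 2.44% of genes for H3K27ac. The unknown read depth limits what the absence of a peak in a control library can show.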
